A study of Homo sapiens with 12 samples.

Results

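The cytosolic ribosomal protein genes encode the protein components of the ribosome that works in the cytoplasm, and they were followed here across 12 RNA-seq libraries of one carcinoma cell line. Members were the symbols of the deposited count table that carry a large-subunit (RPL), small-subunit (RPS) or stalk (RPLP) name, with RPSA, and without kinases, pseudogenes and the copies on the Y chromosome. The names gave 84 symbols of 25382 in the table, and 81 of them had a mean of at least 1 CPM (counts scaled to library size), 49 of the large and 32 of the small subunit. All 81 also passed the expression filter that left 15437 genes for testing. The 3 symbols outside the threshold were RPL10L at 0.0106, RPL21 at 0.013 and RPL3L at 0.169 CPM. Members just inside it were RPL36A at 2.28, RPS10 at 6.95 and RPL17 at 11.7 CPM, among others.

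Cal27 is an established human cell line from a squamous cell carcinoma of the tongue, and the study grew wild-type Cal27 cells on collagen-coated polyacrylamide gels to ask what cells retain from an earlier environment. Each library came from cells that spent 5 days in a conditioning environment and 1 day after replating, and each of 4 conditions had replicates numbered 1, 2 and 3. Soft-to-soft cells were on a soft gel of 0.48 kPa throughout. Stiff-to-soft cells were conditioned on a gel of 20 kPa and replated on the soft gel. LPA-to-soft cells were conditioned on the soft gel with lysophosphatidic acid (LPA), a lipid that activates G protein-coupled receptors and contractility, and replated on the soft gel. LPA-to-FAKi cells were also conditioned with LPA, and their replating on the soft gel was in the presence of an inhibitor of FAK, the focal adhesion kinase of cell-matrix contacts. The labels class stiff-to-soft and LPA-to-soft as having learned and the other 2 conditions as not having learned. The sources used here give no dose of LPA or of the inhibitor, and all libraries come from 1 line of 1 genotype.

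Ribosomal proteins are needed in matched amounts, and growing cells spend much of their transcription and translation on making ribosomes. Most of their mRNAs begin with a C followed by a run of pyrimidines, the terminal oligopyrimidine (TOP) motif, through which mTOR signalling and LARP1 control their translation and stability together. Several members have a near copy (a paralog) encoded by a separate gene, and some have roles off the ribosome, such as the binding of MDM2 by RPL5 and RPL11.

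The start windows of 9 members show this shared feature, with RPS27L and RPL7L1 as copies that lack it. Each window holds 15 bases before and 15 from the start annotated by RefSeq on GRCh38.p14, read on the gene's strand, with capitals marking a C at the start and the unbroken pyrimidines after it where at least 4 follow. RPSA (chr3:39406705-39406734, plus strand), RPS3 (chr11:75399503-75399532, plus) and RPL13A (chr19:49487593-49487622, plus) are members with a role off the ribosome that were lower in number 1. RPL22 (chr1:6199581-6199610, minus) and RPL22L1 (chr3:170870181-170870210, minus) are a gene and its copy that both have the motif. RPS27 (chr1:153990747-153990776, plus) has it and its copy RPS27L (chr15:63157463-63157492, minus) does not. RPL36A (chrX:101390996-101391025, plus) has it, and RPL7L1 (chr6:42879601-42879630, plus), a distant copy of RPL7, does not.
RPSA: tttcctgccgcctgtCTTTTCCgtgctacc
RPS3: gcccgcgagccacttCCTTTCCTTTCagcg
RPL13A: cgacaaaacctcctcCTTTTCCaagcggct
RPL22: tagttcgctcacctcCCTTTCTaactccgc
RPL22L1: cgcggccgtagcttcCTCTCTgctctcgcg
RPS27: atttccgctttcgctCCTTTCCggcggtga
RPS27L: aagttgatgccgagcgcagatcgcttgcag
RPL36A: tttgcctcgcggtttCTTTCTTTCCgcgcc
RPL7L1: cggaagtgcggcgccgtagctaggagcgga

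RefSeq start entries matched 65 of the 81 members, some with several annotated starts. A gene counted as a match if any of its starts had the motif on the gene's own strand, which held for 46 of the 65 (70.8%). The 19 without a match were not only copies, and RPS26, RPS28 and RPS29 were among them. RPL7, the parent of RPL7L1, had no start entry. The same match was present in 742 of 10862 other tested genes with an entry (6.83%) and in 1404 of all 27305 genes with one (5.14%). Among translation factors and other genes known for TOP mRNAs it was present in 15 of 18, and among mitochondrial ribosomal protein genes in 6 of 68. A match describes these letters at an annotated start, and starts in Cal27 cells were not measured.

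Totals ran from 62953957 to 122311183 counts per library, with 16259 to 17464 symbols detected. In 10 libraries 96.8% to 97.8% of counts between 1 and 19 were even numbers, while in soft-to-soft replicates 1 and 2 the figures were 42.9% and 42.2%, so these 2 libraries stand apart from the rest and results that rest on them are also given without them. Squamous keratins were present in every library, with KRT5 at 2697 to 5912 CPM, whereas the leukocyte marker CD3E had 0 counts. PTPRC had at most 6 counts in a library, and the endothelial markers PECAM1, KDR and TEK had at most 8. Other genes of those lists were measured in every library: CD68 at 9.39 to 43.3 CPM, CD14 at 1.03 to 5.58 and ITGAM at 1.35 to 4.11 among leukocyte markers, and CDH5 at 4.55 to 36.3 and VWF at 1.13 to 4.62 among endothelial markers. In bulk RNA a lower value can come from fewer cells of a type or from less RNA per cell, and these cannot be told apart.

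Ribosomal protein mRNAs took 4.59% to 6.41% of all counts in a library, and the share differed mainly by replicate number. Over the 4 libraries numbered 1 it was 4.93% ± 0.312 (SD, n = 4), against 6.15% ± 0.201 in those numbered 2 and 5.97% ± 0.253 in those numbered 3. The shares were 4.59%, 5.94% and 5.72% in soft-to-soft replicates 1, 2 and 3, and 5.01%, 6.41% and 6.02% in stiff-to-soft. They were 4.80%, 6.19% and 5.85% in LPA-to-soft, and 5.32%, 6.06% and 6.30% in LPA-to-FAKi. Every library numbered 1 was below the other 8. The condition means were 5.42% ± 0.724 for soft-to-soft, 5.81% ± 0.722 for stiff-to-soft, 5.61% ± 0.721 for LPA-to-soft and 5.89% ± 0.510 for LPA-to-FAKi (SD, n = 3 each). These SDs include the difference between numbers, and the condition ranges overlapped. Within each number soft-to-soft had the lowest share of the 4 conditions. After the scaling used for the tests, LPA-to-soft was lower than soft-to-soft in number 3, at 5.91% against 5.99%. Differences in share were not tested.

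**Figure D1:**
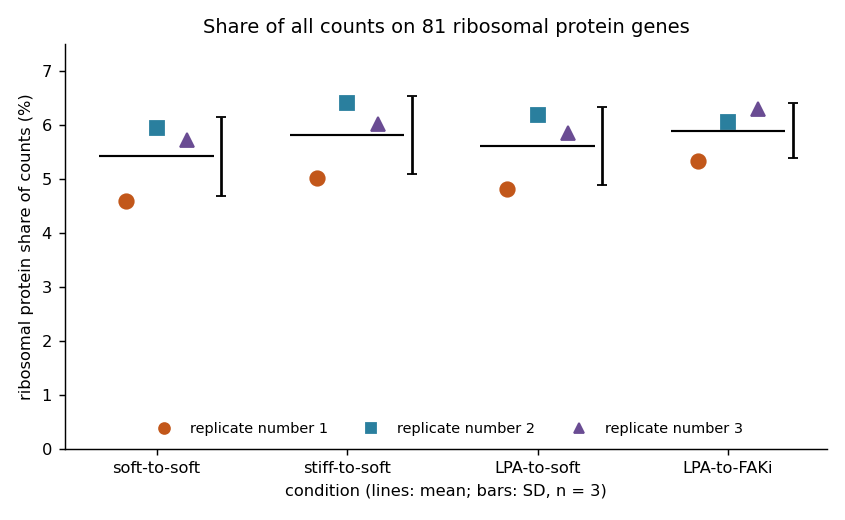
Share of a library's counts held by the 81 ribosomal protein genes (percent, vertical axis) in each of the 12 libraries, by condition and replicate number. In every condition the library numbered 1 has the lowest share, between 4.59% and 5.32%.

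Per kilobase of transcript the members spanned a wide range. The median was 1018 CPM per kb, the 10th percentile 69.5 and the 90th 1665. The highest were RPS2 at 2651, RPL35 at 2526 and RPS3 at 2422, followed by RPLP1 of the stalk at 2333. Among the lowest were RPL36A at 3.27, RPS10 at 10.6 and RPL17 at 16.6 CPM per kb. Those 3 encode core ribosomal proteins, had 66 to 370, 396 to 965 and 746 to 1550 counts per library, and their values are uncertain. Read-through genes that overlap RPL17, RPL36A and RPS10 were listed at 0 counts, 30 pseudogene symbols together held 0.0695% as many counts as the members, and the sources used here do not say how reads that fit several places were counted. The copies RPS27L, RPL7L1, RPL39L, RPL22L1 and RPL26L1 were also low, at 20.2, 22.5, 51.03, 61.7 and 69.5 CPM per kb. The summed counts of the large subunit were 1.57 to 1.63 times those of the small subunit in every library.

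The members moved together. Over the 12 libraries, which share their scaling, the median Pearson r of log2 CPM between 2 members was 0.914 over 3240 pairs, and 67 of 81 members had r above 0.9 with the mean of the others. Replicate number took a median of 84.0% of a member's sum of squares and condition 9.43%, against 50.5% and 19.3% over all genes tested. Members far from the common pattern included RPL36A (r = -0.71), RPL22L1 (0.36) and RPS27L (0.53). The standard deviation of log2 CPM ran from 0.12 for RPL17 and 0.13 for RPS27 to 0.29 for RPS27L and 0.77 for RPL36A, with a median of 0.20 over the members and 0.23 over all genes tested. Outside the members, the genes whose log2 CPM followed the members' mean most closely were GNB2L1, which encodes RACK1, a scaffold protein on the small subunit (r = 0.99), BTF3, a subunit of the nascent polypeptide-associated complex (0.98), MTFP1 (0.98) and FBL, the nucleolar methyltransferase fibrillarin (0.98).

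**Figure D2:**
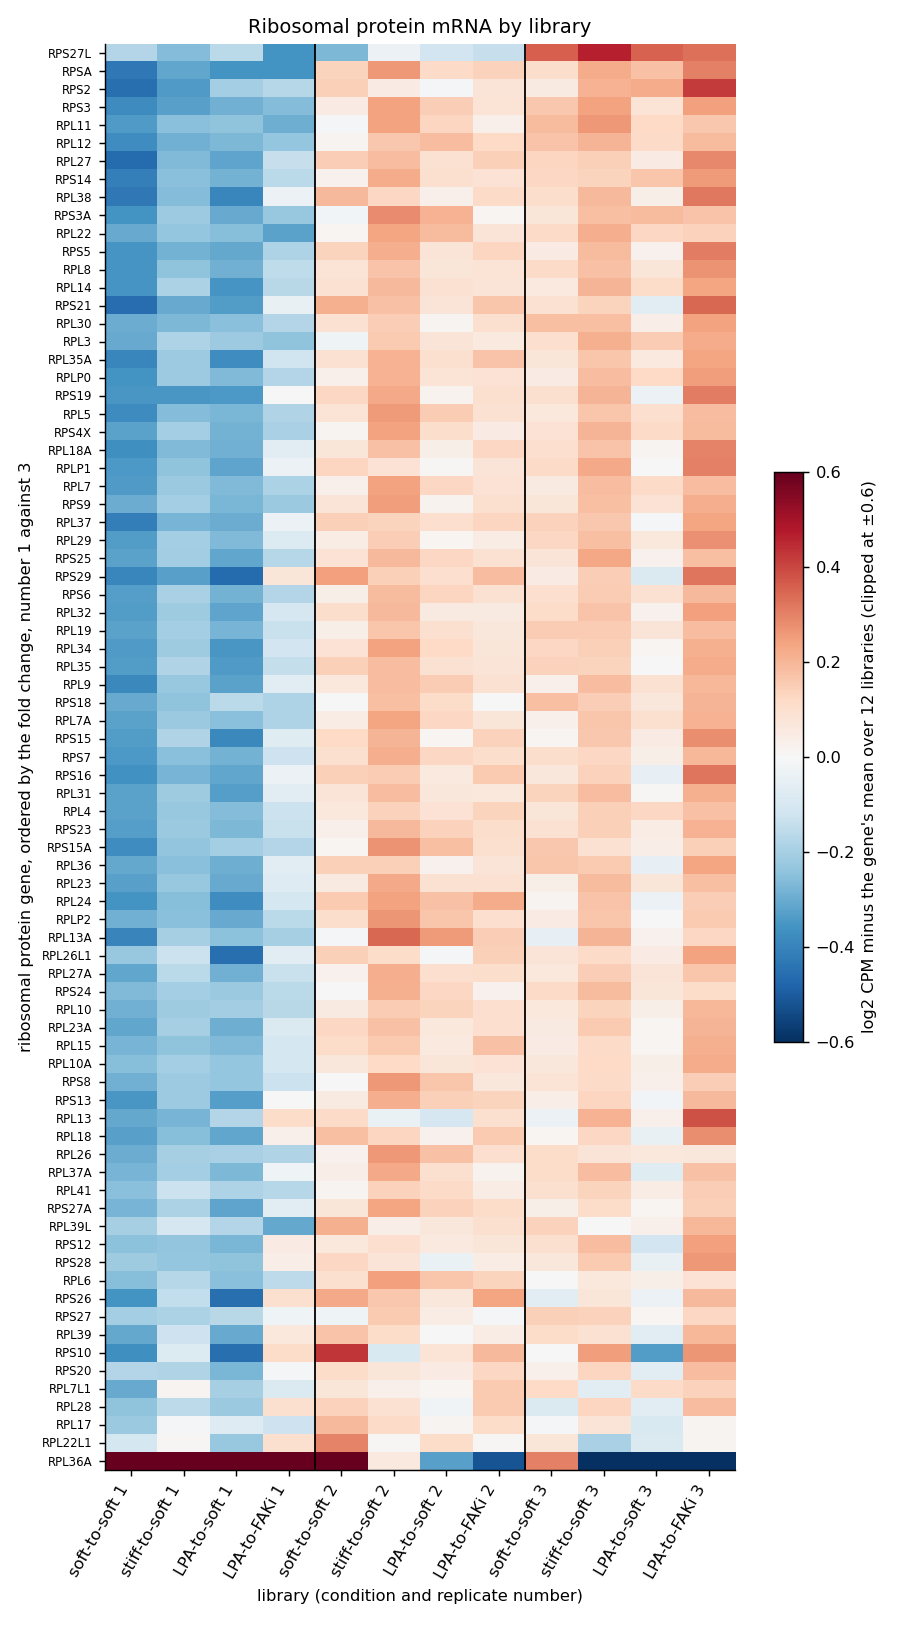
Log2 CPM of each of 79 members minus its mean over the 12 libraries (color, shown between -0.6 and 0.6), with libraries grouped by replicate number and genes ordered by the difference between numbers 1 and 3. The columns numbered 1 are low for nearly all members, and RPL36A runs the other way.

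Between replicate numbers 1 and 3, with condition in the model, 76 of 81 members were lower in number 1 and 1 was higher, by edgeR's quasi-likelihood test with Benjamini-Hochberg adjustment over all genes. Of all genes tested, 20.6% were called lower and 19.2% higher. The members' median log2 difference was -0.37, where the median over all genes was 0.00. Between numbers 1 and 2, which share the number 1 libraries with the first comparison, 75 members were lower and 1 higher (19% and 17% of all genes), with a median of -0.36. Between numbers 2 and 3 only 1 member passed, the lower RPS27L (11.6% of all genes lower and 12.2% higher), and the median was -0.01. Without soft-to-soft replicate 2, RPS2 (-0.24, adjusted p = 0.01737) and RPL13 (-0.22, adjusted p = 0.04043) were also lower in number 2, and without soft-to-soft replicate 1 RPL36A was higher (0.69, adjusted p = 0.03248). Groups did not overlap for 61 members lower and 1 higher in number 1 than in number 3 (17.4% and 16.1% of all genes), and for 68 lower in number 1 than in number 2 (14.1%). Between numbers 2 and 3 they did not overlap for RPL6, which was higher in number 2 (13.5%), and for the lower RPS27L (12.7%). All 4 libraries numbered 1 were below the other 8 for 59 of 81 members, against 8.81% of genes tested. The test over the 3 numbers together called 77 of 81 members (52.3% of all genes). Without soft-to-soft replicates 1 and 2, 74 members were called between numbers 1 and 3, with a median of -0.35, and 69 between numbers 1 and 2, with a median of -0.33. Calls lost were those of RPL28, RPL39 and RPL7L1 in both, and of RPL17, RPS12, RPS27 and RPS28 between numbers 1 and 2. The test over the 3 numbers then called 72 members, and that between numbers 2 and 3 called 2, RPS2 and RPS27L.

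The difference between numbers 1 and 3 was present in each condition. The member median was -0.41 within soft-to-soft, with 80 of 81 members lower, and -0.39 within stiff-to-soft, with 78 lower. It was -0.33 in both LPA-to-soft and LPA-to-FAKi, with 78 lower in each. The difference between numbers 1 and 2 was smallest in LPA-to-FAKi, at -0.22, against -0.39 in soft-to-soft, -0.41 in stiff-to-soft and -0.38 in LPA-to-soft. In LPA-to-FAKi 73 of 81 members were lower in number 2 than in number 3, with a median of -0.12, while the medians of the other conditions lay between 0.01 and 0.05. What a replicate number stands for is not given in the labels, so culture, day and library batch cannot be told apart.

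**Figure D3:**
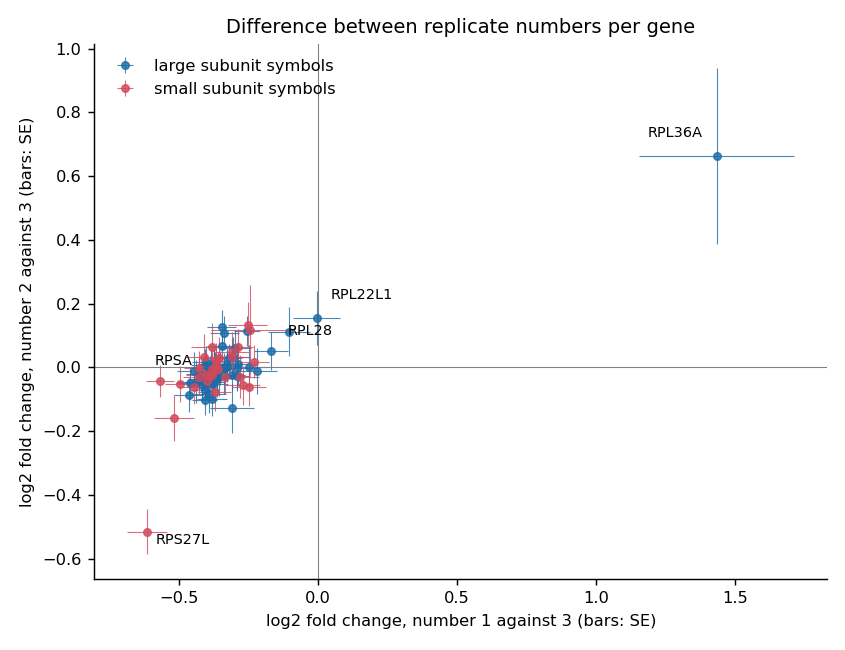
Log2 difference of number 1 against number 3 (horizontal axis) and of number 2 against number 3 (vertical axis) for each of 79 members, with bars of 1 standard error. Most members lie near -0.37 and 0, RPS27L is low on both axes and RPL36A is high on both. Both axes share the number 3 libraries.

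By structural role, 46 of 49 large-subunit members were lower in number 1 than in number 3 and 1 was higher, with a median of -0.36, and 30 of 32 small-subunit members were lower, with a median of -0.37. All 3 stalk genes were lower. RPLP0, the base of the stalk that recruits translation factors, was at 1367, 1504, 1459 and 1552 CPM in number 1 (the order throughout is soft-to-soft, then stiff-to-soft, then LPA-to-soft, then LPA-to-FAKi). It was at 1788, 2020, 1851 and 1861 in number 2 and 1814, 1992, 1902 and 2081 in number 3. No number 1 library of RPLP0 reached any of the others, and its difference from number 3 was -0.41 ± 0.0488 (SE), adjusted p = 0.0001165. The acidic stalk proteins RPLP1 and RPLP2 differed by -0.39 ± 0.0612 and -0.34 ± 0.0542 (adjusted p = 0.0005466 and 0.0005913).

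RPL5 and RPL11, which join the 5S rRNA in a particle that enters the large subunit and that otherwise binds MDM2, were both lower. RPL11 was at 729.7, 774.2, 780.8 and 753.7 CPM in number 1. It was at 918.3, 1089, 1008 and 943.2 in number 2 and at 1054, 1104, 1003 and 1032 in number 3. The groups did not overlap, and RPL11 differed by -0.46 ± 0.0532 between numbers 1 and 3 (adjusted p = 8.513e-05). RPL5 averaged 833.7 ± 46.7 CPM in number 1 and 1101 ± 43.8 in number 3 (SD, n = 4), a difference of -0.40 ± 0.0518 (edgeR adjusted p = 0.0001733). Of the 18 members known as genes of Diamond-Blackfan anemia, an inherited failure of red cell production, 16 were lower, with a median of -0.37. RPS10, at -0.24 (adjusted p = 0.1968), had no call.

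All 7 members listed for an extended protein or a role off the ribosome were lower, with a median of -0.34. RPSA, a protein of the small subunit also known as the laminin receptor precursor, had one of the clearest differences. Its CPM was 909.5, 984.4, 955.4 and 952.8 in number 1, then 1344, 1464, 1323 and 1346 in number 2, and 1318, 1429, 1383 and 1510 in number 3. The number 1 libraries lay together and below all others, and the difference was -0.57 ± 0.0508 from number 3 (adjusted p = 2.037e-05) and -0.53 ± 0.0508 from number 2 (adjusted p = 5.948e-05). RPS3, which lies at the mRNA entry and also has DNA repair activity, was at 1662, 1723, 1771 and 1806 CPM in number 1. It was at 2234, 2553, 2390 and 2290 in number 2 and at 2415, 2555, 2286 and 2562 in number 3, with no overlap with number 1, and its difference from number 3 was -0.50 ± 0.0557 (adjusted p = 7.65e-05). RPS6, the S6 kinase substrate, averaged 1187 ± 59.9 and 1544 ± 50.7 CPM in numbers 1 and 3 (SD, n = 4) and differed by -0.38 (edgeR adjusted p = 0.0001621). RPL13A, which takes part in a translational silencing complex after interferon treatment, averaged 122.5 ± 7.70 and 154.9 ± 11.96 CPM and differed by -0.34 (adjusted p = 0.0005015).

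Paralogs did not all follow their parent genes. RPL22, a large-subunit protein that also binds RNA off the ribosome, was at 269.9, 283.7, 279.5 and 266.8 CPM in number 1. It was at 360.9, 387.3, 363.8 and 367.4 in number 3, with no overlap, a difference of -0.43 ± 0.0486 (adjusted p = 8.129e-05). Its copy RPL22L1 was at 31.1, 33.6, 28.6 and 35.8 CPM in number 1 and at 35.2, 29.2, 31.5 and 33.8 in number 3. Those groups overlapped fully, and the difference was -0.01 ± 0.0844 (adjusted p = 0.968). As a percentage of RPL22 CPM, RPL22L1 was 11.8 ± 1.30 in number 1, 9.97 ± 1.59 in number 2 and 8.79 ± 0.946 in number 3 (SD, n = 4). The difference between the 2 genes' changes was not tested.

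RPS27L, a copy of RPS27, was the member that set number 3 apart from number 2. It was at 14.2, 13.4, 14.3 and 12.47 CPM in number 1, at 13.2, 15.6, 14.8 and 14.5 in number 2, and at 20.5, 22.1, 20.4 and 20.1 in number 3. All number 3 libraries were above the other 8, and the differences were -0.61 ± 0.0722 for number 1 (adjusted p = 0.0001001) and -0.51 ± 0.0720 for number 2 (adjusted p = 0.001068), both against number 3. RPS27 itself, a zinc finger protein of the small subunit, averaged 365.7 ± 21.3 and 434.6 ± 18.5 CPM in numbers 1 and 3 and differed by -0.25 (adjusted p = 0.007059). RPS27L as a percentage of RPS27 CPM was 3.73 ± 0.406, 3.48 ± 0.117 and 4.78 ± 0.238 in numbers 1, 2 and 3 (SD, n = 4), not corrected for length. Of the other copies, RPL26L1 (-0.34, adjusted p = 0.001065), RPL39L (-0.29, adjusted p = 0.006715) and RPL7L1 (-0.22 ± 0.0718, adjusted p = 0.03189) were lower in number 1 by the same test.

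RPL36A was the only member higher in number 1. It was at 3.05, 3.34, 3.34 and 3.51 CPM in number 1, at 3.34, 2.09, 1.59 and 1.40 in number 2, and at 2.47, 0.828, 1.30 and 0.831 in number 3. Number 1 was above number 3 without overlap, by 1.44 ± 0.279 (adjusted p = 0.002094), but overlapped number 2. In numbers 2 and 3 the highest value was that of soft-to-soft, which in number 2 is one of the libraries that stand apart. RPL28 (-0.17 ± 0.0604, adjusted p = 0.04365) and RPL7L1 were the members called with the highest adjusted p, and neither call was firm. RPL28 lost its call without soft-to-soft replicate 1, without any 1 of the stiff-to-soft or LPA-to-soft libraries, or without LPA-to-FAKi replicate 3, with edgeR adjusted p up to 0.1545. The RPL28 call was also lost with RLE scaling and with no low-count filter. RPL7L1 lost its call without soft-to-soft replicate 1 or 3 or any 1 of the LPA-to-soft or LPA-to-FAKi libraries, and its adjusted p was 0.1613 without soft-to-soft replicates 1 and 2.

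**Figure D4:**
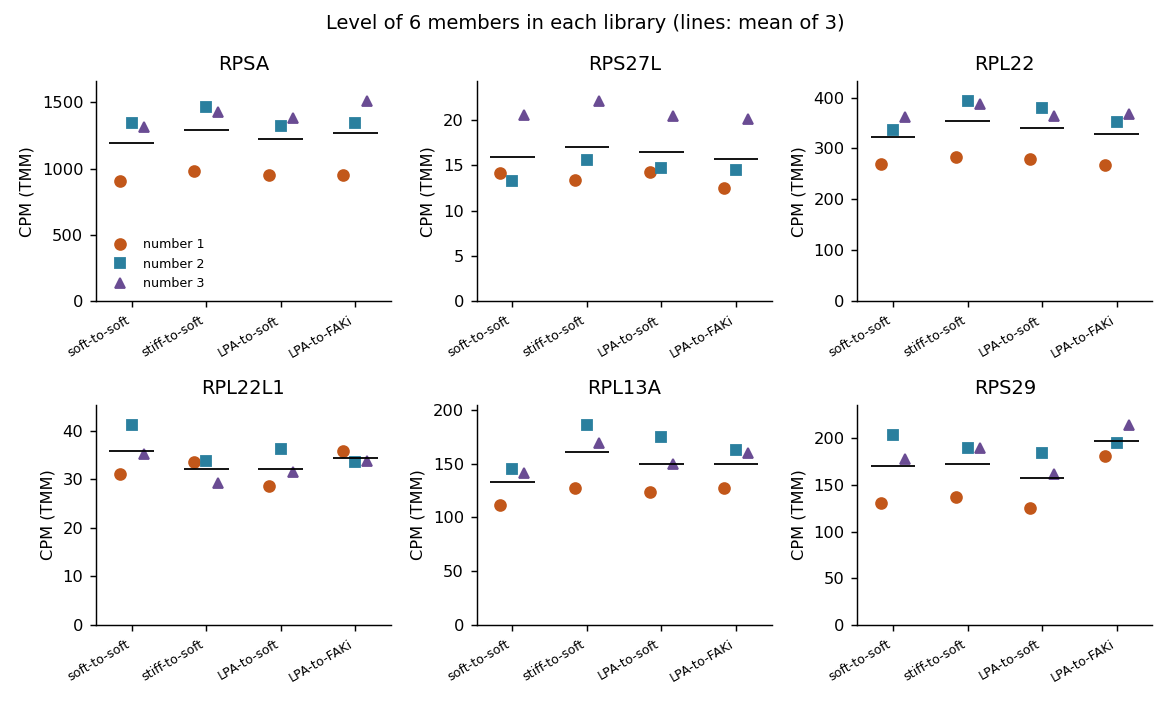
CPM of RPSA, RPS27L, RPL22, RPL22L1, RPL13A and RPS29 in each library, by condition and replicate number. RPSA and RPL22 have all number 1 libraries lowest, RPS27L has all number 3 libraries highest, and RPL22L1 shows no order by number.

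Other genes of ribosome production were read from lists in the same fit. Their counts are read against the 20.6% of all genes lower and 19.2% higher in number 1 than in number 3. Of 77 mitochondrial ribosomal protein genes, 68 were lower in number 1 than in number 3 and 0 higher, with a median of -0.28. Of 26 other TOP mRNA genes, 22 were lower and 0 higher, with a median of -0.29, led by NAP1L1 at -0.51 and the nucleolar protein NPM1 at -0.48. EIF3A at 0.11 and EIF4A2 at 0.10 were among those without a call. Of 63 ribosome biogenesis genes 10 were lower and 0 higher, both smaller shares than over all genes. Their median was -0.11, with 41 of 63 negative. Among the 10 were FBL at -0.52 and NHP2, a protein of H/ACA particles, at -0.51. Against number 2, with the same number 1 libraries, 41 biogenesis genes were lower and 0 higher (19% and 17% of all genes), with a median of -0.26. Between numbers 2 and 3, where 1 member was called, 16 biogenesis genes were higher in number 2 and 0 lower (12.2% and 11.6% of all genes). The higher ones included the assembly factors MDN1 at 0.54 and UTP20 at 0.47.

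Of 23 regulators of growth and TOP mRNAs, 5 were lower and 5 higher in number 1 than in number 3, close to the shares of all genes in both directions. The transcription factor MYC was at -0.63, the mTORC1 inhibitor DDIT4 at -1.30, the MAX partner MXD1 at 1.00 and TSC1 of the tuberous sclerosis complex at 0.37. This list holds genes whose own functions point in different directions, so its counts give no direction for a pathway.

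Several other measures moved with number. Summed CPM of the squamous epithelial markers was 12740 to 16110 in number 1, 5917 to 11740 in number 2 and 7143 to 9919 in number 3. Within that list KRT14 (1.85) and KRT6A (1.93) were higher and EPCAM (-0.56) lower in number 1 than in number 3 on the log2 scale. Summed fibroblast markers were 25.8 to 37.2, 14.6 to 21.1 and 15.7 to 20.8 CPM, mostly COL1A1, with COL3A1, DCN and THY1 at or near 0. Summed endothelial markers, mostly CDH5, were 5.93 to 14.9 CPM in number 1, below the 15.96 to 37.7 of number 2 and the 15.2 to 25.3 of number 3. CDH5 itself differed by -1.39 ± 0.187 between numbers 1 and 3 (edgeR adjusted p = 0.0002263). Summed leukocyte markers, mostly CD68, were 20.8 to 49.0 CPM in number 1, which overlapped number 2 (19.4 to 33.1) and lay above number 3 (13.8 to 19.4). Genes of the mitochondrial genome held 5.54% to 8.01% of counts in number 1, 4.31% to 5.05% in number 2 and 5.47% to 8.22% in number 3, so number 1 did not stand apart in this share. Among other genes with at least 100 CPM, the median difference between numbers 1 and 3 was -0.17 over 620 genes longer than 500 and up to 1000 nucleotides and 0.01 over 28 genes longer than 8000. The part of markers, length and level in the members' difference was not tested. Within the members, the 41 shorter and 40 longer than the median of 687 nucleotides had medians of -0.35 and -0.38. The 46 members with the TOP start and the 19 with an entry but no match had medians of -0.37 each. A match within 5 bases of a start was present in 53 of the 65 with an entry, so the 19 include members with a nearby match. The part of the motif was not tested.

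No member was called between conditions, nor between the learned and not learned classes, by edgeR's quasi-likelihood test, and no member had an unadjusted p under 0.05 in any of these 6 comparisons. No gene of the 15437 was called in them either (0% in each direction), while 211 to 838 genes per comparison had an unadjusted p under 0.05. DESeq2 and limma voom without the replicate block also called 0 members. By DESeq2, 1 member and 1002 of all genes had an unadjusted p under 0.05 in LPA-to-FAKi against LPA-to-soft. Libraries of the same replicate number deviated together, and with number as a block edgeR still called 0 members. Unadjusted p under 0.05 was then reached by 16 members for stiff-to-soft against soft-to-soft, 1 for LPA-to-soft against soft-to-soft, 30 for LPA-to-FAKi against LPA-to-soft, 25 for LPA-to-FAKi against soft-to-soft, 4 where stiff-to-soft was set against LPA-to-soft and 3 for the classes. Over all 15437 genes the counts were 1580, 1231, 3439, 2559, 1454 and 1535 in the same order. The comparisons share libraries, so each is given on its own.

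Member values after conditioning on the stiff gel were on the whole slightly above those of cells on the soft gel throughout, without a call. The member median was 0.09, with 76 of 81 positive, where the median over all genes was -0.01. Within numbers 1, 2 and 3 the medians were 0.11, 0.10 and 0.08, and 52 members were higher in stiff-to-soft in all 3 numbers and 0 lower in all 3, against 14.6% and 15.7% of all genes. Soft-to-soft replicates 1 and 2 enter here. The number 3 pair without them had 69 of 81 members positive, and the blocked fit without both gave a median of 0.06. Without the block, leaving out both gave -0.05 and leaving out soft-to-soft replicate 1 alone gave -0.04, where the conditions no longer hold the same replicate numbers. RPL13A had the largest positive difference. It was at 111.4, 145.2 and 141.5 CPM in soft-to-soft and at 127.8, 186.1 and 168.8 in stiff-to-soft. Each pair was higher after the stiff gel although the groups overlapped. The difference was 0.28 ± 0.176 (adjusted p = 0.9997), or 0.27 ± 0.0597 with the block (adjusted p = 0.08023). DESeq2 with the block called RPL13A alone of the members (adjusted p = 0.0069), with 1.28% of all genes called higher and 1.59% lower. edgeR with the block called 0.24% of all genes higher and 0.343% lower in this comparison. The groups overlapped for every member, where 2.16% of all genes were higher and 2.19% lower without overlap. RPL36A had the most negative difference, -0.50, and RPL22L1 was at -0.16. Other lists had medians of 0.06 for mitochondrial ribosomal protein genes (62 of 77 positive) and 0.07 for other TOP mRNA genes (24 of 26). Ribosome biogenesis genes were at 0.03 (43 of 63).

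LPA-to-soft against soft-to-soft showed no common direction among the members. The median was 0.00, with 39 members positive and 42 negative, and the medians within numbers 1, 2 and 3 were 0.04, 0.00 and -0.05. In all 3 numbers 15 members were higher and 9 lower, against 15.8% and 18.3% of all genes. Leaving out soft-to-soft replicates 1 and 2 gave a median of -0.13 without the block and -0.02 with it. RPL13A (0.17) and RPS3A (0.14) were highest, and RPL36A (-0.51), of low level, was lowest. DESeq2 with the block called 0 members (0.343% of all genes higher and 0.123% lower), and 0 members had groups without overlap (2.64% higher and 2.18% lower).

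Against LPA-to-soft, stiff-to-soft had a median of 0.09 with 80 of 81 members positive, and medians of 0.05, 0.10 and 0.11 within the numbers. In that comparison 60 members were higher in all 3 numbers and 0 lower, against 18.1% and 16.8% of all genes. The within-number values do not use the soft-to-soft libraries. Without LPA-to-soft replicate 1 and without the block the median was -0.01. With the block, edgeR called 0 members (0% of all genes higher and 0.00648% lower) and so did DESeq2 (0.22% and 0.207%). Again 0 members had groups without overlap, against 2.66% of all genes higher and 3.19% lower.

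Replating with the FAK inhibitor after LPA gave a median of 0.10 against LPA-to-soft, with 73 of 81 positive, and 0.11 against soft-to-soft, with 76 positive. Both medians came mainly from numbers 1 and 3. Against LPA-to-soft the medians within numbers 1, 2 and 3 were 0.15, 0.00 and 0.16, and 37 members were higher in all 3 numbers and 1 lower, against 22.9% and 22.2% of all genes. Against soft-to-soft they were 0.20, 0.01 and 0.12. In that comparison 43 members were higher in all 3 numbers and 0 lower, against 17.45% and 17.68% of all genes. Without the block, the median against LPA-to-soft was 0.00 when LPA-to-soft replicate 1 was left out, and that against soft-to-soft was -0.02 when soft-to-soft replicate 1 was left out. Over the 3 libraries a group, 7 members were higher without overlap in LPA-to-FAKi than in LPA-to-soft, namely RPL13, RPL18, RPL28, RPL39, RPS10, RPS26 and RPS28, against 5.95% of all genes, and 0 were lower without overlap, against 5.4%. Against soft-to-soft 0 members had groups without overlap (3.04% of all genes higher and 3.12% lower). With the block, 0 members were called against soft-to-soft by edgeR (0.155% higher and 0.408% lower) or by DESeq2 (1.55% and 3.01%).

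RPS26, a small-subunit protein at the mRNA exit, was at 169.6, 243.0 and 226.2 CPM in LPA-to-soft and at 248.0, 273.6 and 265.5 in LPA-to-FAKi. The groups did not overlap, and the largest difference within a pair was in number 1. Between the conditions RPS26 differed by 0.30 (edgeR adjusted p = 0.0863 with the block). RPS29, a small zinc-binding protein of the small-subunit head, was at 124.7, 184.0 and 161.6 CPM in LPA-to-soft and at 180.5, 194.8 and 214.2 in LPA-to-FAKi. Each pair was higher with the inhibitor while the groups overlapped, with a difference of 0.33 ± 0.192 (adjusted p = 0.8388), or 0.35 ± 0.0881 with the block (adjusted p = 0.0863). RPL28 of the large subunit was at 554.2, 636.8 and 618.3 CPM and at 691.2, 719.8 and 734.6, without overlap, and differed by 0.25 (adjusted p = 0.0976 with the block). DESeq2 with the block called 15 members higher and 0 lower, where it called 4.15% of all genes higher and 3.83% lower. RPS29, RPS26, RPL18, RPL28 and RPL13 were among them (adjusted p = 0.01365, 0.01528, 0.01706, 0.0225 and 0.0424). A block fitted with edgeR on all libraries called 0 members, and 0% of all genes in each direction. Among blocked edgeR fits that left out 1 library, only that without soft-to-soft replicate 2 called members here, 5 of them. The share of all genes called in that fit is not given here, so the 5 have no background.

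In LPA-to-FAKi against LPA-to-soft, shorter members had the larger differences, with medians of 0.14 over the 41 shorter and 0.07 over the 40 longer. Other genes showed the same order by length, from 0.03 over 2940 genes longer than 500 and up to 1000 nucleotides to -0.16 over 263 genes longer than 8000. Summed leukocyte markers were 13.8 to 21.9 CPM in LPA-to-soft and 19.4 to 49.0 in LPA-to-FAKi, and summed endothelial markers 14.9 to 23.1 and 5.93 to 16.02. The part of length and of these markers in the members' values was not tested. Other lists also had medians above 0 without a call, at 0.14 for mitochondrial ribosomal protein genes, 0.13 for ribosome biogenesis genes and 0.19 for snoRNA host genes, while the other TOP mRNA genes were at 0.00. In LPA-to-FAKi against soft-to-soft, medians were 0.11 for mitochondrial ribosomal protein genes (68 of 77 positive) and 0.07 for ribosome biogenesis genes (57 of 63). There the snoRNA host genes were at 0.08 (8 of 11) and other TOP mRNA genes at 0.04 (20 of 26). Between the learned and not learned classes the member median was -0.01, with 38 positive and 43 negative. The medians were -0.02, 0.05 and -0.05 within numbers 1, 2 and 3, and without soft-to-soft replicates 1 and 2 the median was -0.07, or -0.05 with the block. With the block, 0 members were called by edgeR (0.00648% of all genes higher and 0% lower) or by DESeq2 (0.447% and 0.389%). Over 6 libraries a class, 0 members had groups without overlap (0.0972% higher and 0.0389% lower). The largest member differences were 0.13 for RPL13A and -0.22 for RPL36A.

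**Figure D5:**
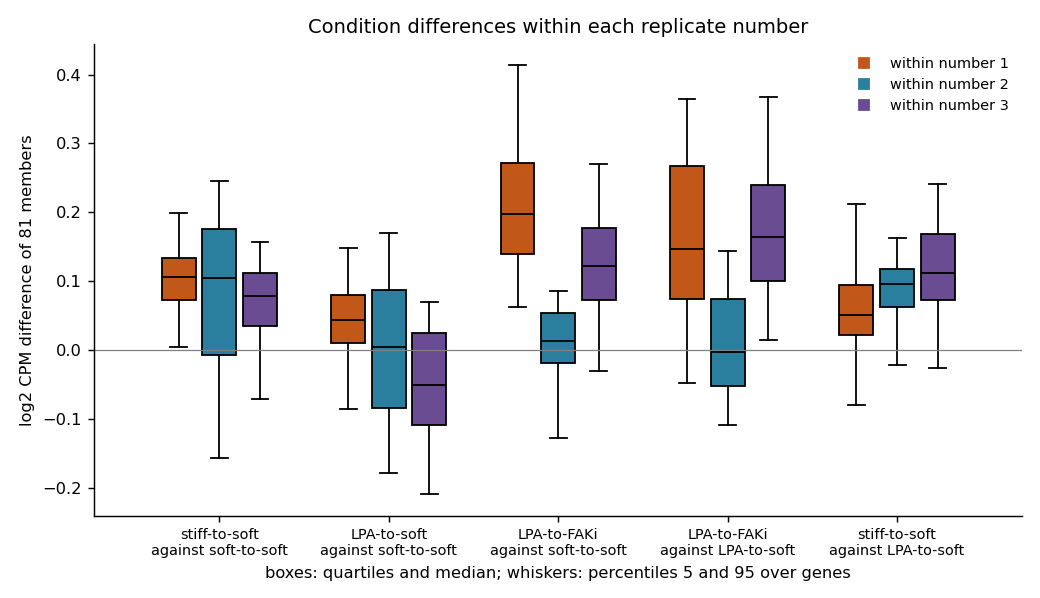
Box plots of the members' log2 differences between conditions within each replicate number, for 5 comparisons (box, quartiles; line, median; whiskers, 5th and 95th percentiles of the 81 members). The medians of stiff-to-soft against soft-to-soft are above 0 in each number, and those of LPA-to-FAKi against LPA-to-soft are above 0.1 in numbers 1 and 3 and near 0 in number 2.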

How the data were processed

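The deposited table holds whole-number read counts per gene symbol for 12 libraries, and the authors' second table holds log2 values that equal log2(count times 1 factor per library + 1), which entered no test. Per the submitters' processing notes, cutadapt, FastQC, STAR, HTSeq and DESeq2 were used with hg19. Library preparation used a stranded TruSeq kit per the labels' protocols. The sources used here do not give the strand setting, the annotation or the rule for multi-mapped reads. Genes were filtered with filterByExpr by condition, scaled by TMM and tested with edgeR 4.0.16 in R 4.3.3, a quasi-likelihood F test with Benjamini-Hochberg adjustment over 15437 genes at 0.05. Conditions were contrasts in a model of the 4 conditions, classes in a model of 6 against 6 libraries, and replicate numbers were tested with condition as a covariate. CPM values are TMM-scaled, and log2 CPM used a prior count of 2. limma 3.58.1 and DESeq2 1.42.0 were alternatives, along with RLE scaling, other filters, TMM without the members, a replicate block and leaving out libraries. The fits were tested on simulated data. Transcript length was the median over a gene's protein-coding transcripts in GENCODE release 29, matched for 81 of 81 members and 13181 of 15437 genes tested.

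The labels number the replicates 1 to 3 in each condition. Deviations from condition means correlated between same-numbered libraries at r = 0.312 to 0.659 over 18 pairs, so the numbers were taken to pair libraries. Between different numbers r was -0.517 to 0.0372 over 36 pairs. Centering on condition means itself pulls these values below 0, so they add no separate evidence of pairing. The labels do not say whether replicates are separate cultures, and a p-value here covers only the spread among these libraries, which may be technical. Members and gene lists were chosen with earlier results of these data known. Members named were the 5 with the largest differences in each direction of a comparison, those called, the most and least variable and abundant, and those of the role lists. From each other list at most 2 genes in each direction were named, with the non-members that correlated best with the members' mean. Members named for groups without overlap or for a DESeq2 call with the block, and single cell type markers, were chosen after their values were seen. At 62953957 to 122311183 counts per library, counting error is small for most members and larger for those under 10 CPM. Counts and medians over the members cover all 81, but some genes are not reported here by name.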

Additional observations from a re-analysis of the deposited data

Results flagged for a closer look

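In 400 groups of 4 or 6 libraries, 12 members had 1 library far from the others by Dixon's test at 95%, where chance gives about 1 in 20 groups, or 20. In stiff-to-soft replicate 2, RPL14 (756 CPM), RPL31 (541.9), RPL8 (970.6) and RPSA (1464) were above the other libraries numbered 2. In LPA-to-FAKi replicate 1, RPS12 (669.7), RPS19 (556.2) and RPS28 (345.4) were above the other libraries numbered 1. RPS16 was at 725.7 CPM in LPA-to-soft replicate 2, against the other libraries numbered 2. RPL7L1 in stiff-to-soft replicate 3 (80.5), RPS27 in LPA-to-soft replicate 3 (407.1) and RPS3A in soft-to-soft replicate 3 (468) stood apart from the others numbered 3. Within the not learned class, RPL39 was at 155.4 CPM in soft-to-soft replicate 1.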

How the results depend on the processing

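The lower level of the members in replicate number 1 kept its direction and nearly all its calls. Leaving out 1 library at a time gave medians of -0.387 to -0.345 and 73 to 77 calls against number 3, -0.383 to -0.329 and 69 to 75 calls against number 2, and 73 to 77 calls over the 3 numbers. Number 2 against 3 gave -0.029 to 0.0241 and 1 to 3 calls, with 2 calls when soft-to-soft replicates 1 and 2 were both left out.

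Condition medians moved with which libraries were present. Leaving one out without a block also leaves the conditions with unequal replicate numbers, and the part of this in the movement was not tested. Leaving out 1 library at a time gave -0.0352 to 0.202 for stiff-to-soft against soft-to-soft, -0.122 to 0.107 for LPA-to-soft against soft-to-soft, -0.00102 to 0.174 for LPA-to-FAKi against LPA-to-soft, -0.017 to 0.188 for LPA-to-FAKi against soft-to-soft, -0.0137 to 0.205 where stiff-to-soft was set against LPA-to-soft and -0.0719 to 0.0415 for the classes, with 0 calls in each. Leaving out soft-to-soft replicates 1 and 2 gave -0.0533, -0.127, -0.032 and -0.0657 for stiff-to-soft, LPA-to-soft, LPA-to-FAKi and the classes.

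With the replicate block 0 members were called in all 6 comparisons. Leaving out 1 library at a time with the block, chosen after seeing the data, gave medians of 0.0636 to 0.104, -0.0214 to 0.0212, 0.0615 to 0.143, 0.0766 to 0.154, 0.0629 to 0.104 and -0.0355 to 0.0184 in the same order of comparisons. It gave 0 to 5 calls for LPA-to-FAKi against LPA-to-soft and 0 to 1 against soft-to-soft, the highest without soft-to-soft replicate 2. The shares of all genes called in those fits are not given here. Also added were the block without soft-to-soft replicates 1 and 2, with a median of 0.0645 for stiff-to-soft against soft-to-soft, and the block in DESeq2, with 15 calls for LPA-to-FAKi against LPA-to-soft and 1 for stiff-to-soft against soft-to-soft. For the difference between DESeq2 and edgeR, the cause was not tested. Under settings other than leaving out 1 library, 215 medians and counts stayed on their side of the threshold or within the spread, and 8 moved. Members under 10 CPM, such as RPL36A and RPS10, are limited by depth and by how overlapping genes were counted.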
